A study of Mus musculus with 8 samples.

Results

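The experiment described here is a 6-day block of DOT1L in mouse leukemic cells that carry the MLL-AF9 fusion and a hairpin against luciferase (shLUC), a control hairpin with no target in mouse cells. It comprises 4 of the 8 Affymetrix arrays in the series: 2 in the solvent DMSO and 2 after 6 days in 3 µM EPZ4777, chosen by their titles and paired by a code, A4 or D11, that each title holds. The 4 other arrays are of cells labelled shSirt1 (a hairpin against the deacetylase gene Sirt1) in DMSO or after 21 days in 3 µM EPZ4777, with the codes A1 and A5. All groups carried MLL-AF9. The medium was IMDM containing 15% serum and the cytokines SCF (at 20 ng/ml), IL-3 and IL-6 (both at 10 ng/ml). The labels give the DMSO arrays no time, so a difference of time in culture cannot be told apart from the drug. The sources used here do not give what the codes stand for or whether arrays that share a group are of separate cultures, so p-values measure only the spread between these arrays, which may be technical. Total RNA was measured, and each of 18193 genes was represented by 1 probe set.

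DOT1L is the enzyme that methylates a lysine in the globular core of histone H3 on transcribed genes, and it has no SET domain, unlike most other histone lysine methyltransferases. AF9 binds DOT1L, and the MLL-AF9 fusion brings it to genes such as those of the HoxA cluster and their partner Meis1, which keep myeloid progenitors immature. EPZ4777 occupies the site of DOT1L that binds the methyl donor S-adenosylmethionine. Myeloid progenitors that mature make first the primary granule proteins, then the secondary and tertiary granule proteins of neutrophils, or the receptors and lysosomal enzymes of macrophages.

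The arrays carried RNA of myeloid cells. All 10 measured genes of a myeloid identity list were above a log2 intensity of 6 in mean in both groups, and the pan-leukocyte gene Ptprc stood at 12.03 (A4) and 12.08 (D11) in DMSO and at 12.24 and 12.63 in EPZ4777. Of the 10, 7 had a positive and 3 a negative difference. The 1 member called in limma, Cd48, fell, by 0.81 on the log2 scale. Of 82 measured members of 8 marker lists of other cell types 2 rose (Pf4 and Acta2) and 1 fell (Tcf4). The T cell gene Cd3e lay between 5.16 and 5.26 and the erythroid regulator Gata1 between 3.80 and 4.03 on the 4 arrays. The summed linear intensity of the megakaryocyte list was 557 and 502 in DMSO and 1361 and 1161 in EPZ4777, with Itga2b between 6.26 and 6.65 and Gp9 between 5.44 and 5.66 on the log2 scale. The sum of the T and NK cell list was 648 and 678 in DMSO and 867 and 1262 in EPZ4777. For the dendritic cell list it was 784 and 829 in DMSO and 595 and 509 in EPZ4777. The sum over the stroma list was 712 and 696 in DMSO and 1092 and 1027 in EPZ4777. The eosinophil list summed to 106 and 102 in DMSO and 178 and 217 in EPZ4777, and the mast cell and basophil list to 489 and 592 in DMSO and 651 and 722 in EPZ4777. The sums of the B cell and erythroid lists overlapped between the groups. Single bright members can carry such sums. The median difference was 0.03 for the T and NK cell list, 0.13 for megakaryocyte, 0.02 for dendritic cell and 0.03 for stroma. It was 0.008 for eosinophil and 0.23 for mast cell and basophil. At least 1 log2 higher were 1 of 13 T and NK cell, 2 of 11 megakaryocyte, 1 of 13 stroma and 1 of 6 eosinophil members. The part of the shifts of these sums in the results below was not tested. Dot1l itself lay at 7.59 and 7.86 in DMSO and 7.64 and 7.68 in EPZ4777, so the groups overlapped. Sirt1 lay at 9.46 and 9.58 in DMSO and 9.44 and 9.83 in EPZ4777, and these too overlapped. In the cells labelled shSirt1 it lay at 8.70 in DMSO and 8.85 in EPZ4777 in code A1, below all 4 shLUC arrays. In code A5 it lay at 9.54 and 9.73, within the shLUC range, so the level of the targeted gene goes against the label of the A5 arrays.

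Among the genes that rose were granule genes of neutrophils and genes of macrophages, and among those that fell were Meis1 and genes of ribosome assembly. Of 18193 genes, 724 passed (3.98%), of which 295 rose (1.62%) and 429 fell (2.36%), at a Benjamini-Hochberg adjusted p under 0.05 in limma. Differences below are EPZ4777 minus DMSO on the log2 scale, ± the standard error of the limma fit, n = 2 arrays a group. The median difference was 1.02 among the genes that rose and -0.79 among those that fell. By size, 152 rises (0.835%) and 82 falls (0.451%) reached 1 log2. Of the 429 falls 416 lay in the upper 2 quartiles of DMSO level, and of the 295 rises 206 did. A second fit that took the code as a fixed block (the blocked fit) called 1316 genes (7.23%), 660 higher (3.63%) and 656 lower (3.61%), with 682 of the 724 among them. After quantile normalization 336 rose and 264 fell, a share of rises of 56.0% against 40.7%. The counts rested on single arrays: without the A4 or the D11 array in DMSO limma called 0 genes (2512 and 2592 at an unadjusted p under 0.05), without D11 in EPZ4777 it called 2, and without A4 in EPZ4777 it called 503 higher and 528 lower. Without either array labelled shSirt1 in DMSO, which enters through the shared spread, it called 172 higher and 181 lower. The list counts below come from the same fit and rest on the same arrays. They stand against the shares over all genes, 1.62% higher and 2.36% lower in limma and 3.63% and 3.61% in the blocked fit. A count near these shares is not a result about the list.

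The changes were larger in code D11 than in code A4. In D11 626 genes were higher by at least 1 log2 and 344 lower, against 300 and 108 in A4, and 240 and 81 did so in both codes. Of the 295 genes that rose, 217 had the larger rise in D11, and of the 429 that fell, 335 had the larger fall there. Over all genes 12412 (68.2%) had the same sign in both codes, and the changes correlated at r = 0.740 (Spearman 0.591), a description across genes, which are not independent replicates. All 724 called genes had the same sign in both codes, and for all 724 the DMSO and EPZ4777 arrays did not overlap. For a called gene neither trait is further support. The gap between codes was widest for Ltf, the granule protein lactoferrin, which stood at 6.33 (A4) and 6.92 (D11) in DMSO and at 7.26 and 11.27 in EPZ4777. Mmp9, the tertiary granule gelatinase, stood at 5.53 and 6.46 in DMSO and at 6.22 and 10.21 in EPZ4777. Scd1, the desaturase that makes monounsaturated fatty acids, moved in opposite directions: it was at 8.31 in DMSO and 9.30 in EPZ4777 in A4, and at 8.96 and 7.13 in D11. Neither Ltf nor Mmp9 nor Scd1 passed in limma.

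**Figure D1:**
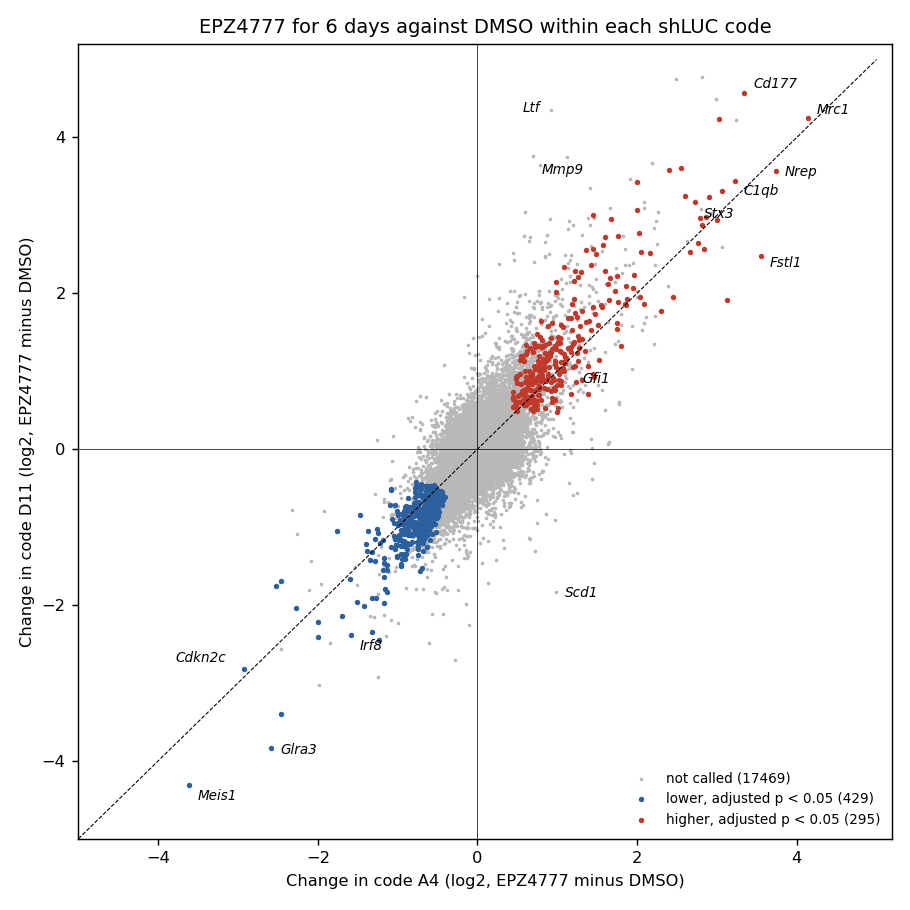
Change in code D11 (y axis) against change in code A4 (x axis), each EPZ4777 minus DMSO on the log2 scale, for 18193 genes, with the 295 genes that rose in red, the 429 that fell in blue and equal change as a dashed line. The called genes lie on the same side of 0 in both codes, most rises lie above the dashed line, Ltf and Mmp9 lie far above it, and Scd1 lies in the opposite quadrant.

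Meis1, the homeodomain partner of HOXA9, had the largest fall of the named genes. It stood at 7.62 (A4) and 7.93 (D11) in DMSO and at 4.01 and 3.62 in EPZ4777. This was 15.6-fold lower (-3.96 ± 0.44, limma adjusted p = 0.0244), and its 3 probe sets had the same sign. Of the 12 measured genes of the HoxA cluster and its partners Meis1 alone passed, and in the blocked fit 4 fell. On 10 of the 12 both EPZ4777 arrays lay below both DMSO arrays, an order that 28.2% of all genes had, and the list's median was -0.38 against -0.0025 over all genes. Hoxa9, the leading oncogene of the cluster, was at 12.62 and 12.83 in DMSO and at 12.30 and 12.48 in EPZ4777, a difference of -0.34 ± 0.20. Hoxa10 was at 10.51 and 10.62 in DMSO and at 9.92 and 10.39 in EPZ4777 (-0.41 ± 0.23). Hoxa11, toward the 5′ end of the cluster, was at 9.18 and 9.43 in DMSO and at 7.22 and 7.71 in EPZ4777 (-1.84 ± 0.46). Hoxa5 was at 8.47 and 8.94 in DMSO and at 6.204 and 7.85 in EPZ4777 (-1.68 ± 0.53). Hoxa7 was at 8.44 and 8.64 in DMSO and at 7.45 and 7.91 in EPZ4777 (-0.86 ± 0.26). Hoxa11, Hoxa7 and Hoxa2 passed in the blocked fit only, and Hoxa5 in neither fit.

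Among 17 other genes bound or raised by MLL fusions 3 fell, against 2.36% of all genes, and 0 rose. With the block 1 rose, against 3.63%, and the median was -0.21. Mef2c, a transcription factor of leukemic stem cells, was at 9.55 and 9.97 in DMSO and at 8.39 and 8.57 in EPZ4777 (-1.28 ± 0.23). The cell cycle kinase Cdk6 was at 12.26 and 12.21 in DMSO and at 11.68 and 11.48 in EPZ4777 (-0.66 ± 0.13, not called in the blocked fit). Hmgb3, a chromatin protein of progenitors, fell by 0.62 on the log2 scale. Six4, another homeobox gene, was at 7.17 and 7.32 in DMSO and 6.38 and 5.84 in EPZ4777 (-1.14 ± 0.34), and it passed in the blocked fit only. Of 28 genes of the DOT1L and MLL complexes Ash2l, a core subunit of the H3K4 methyltransferases, fell (-0.90 ± 0.14) and 0 rose. A count of 1 in 28 is near the 2.36% of all genes that fell. Of 23 sirtuin and H3K9 enzyme genes 0 passed in limma (5 higher and 2 lower at an unadjusted p under 0.05), and 3 passed, higher, in the blocked fit (Kdm4c, Sirt7 and Kdm7a). Of 22 stem and progenitor genes Hoxb4 (0.91 ± 0.12) and Procr (1.10 ± 0.15) rose and Bmi1, a Polycomb protein needed for self-renewal, fell (1 more, Sox4, fell in the blocked fit). Bmi1 was at 10.02 on both DMSO arrays and at 9.10 and 9.21 in EPZ4777 (-0.86 ± 0.14).

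The next largest falls were of genes with varied roles, and their groups did not overlap, as held for every called gene. Glra3, a glycine receptor subunit, was at 9.77 and 9.90 in DMSO and at 7.19 and 6.06 in EPZ4777, 9.25-fold lower (-3.21 ± 0.56). Cdkn2c, which encodes p18INK4C, an inhibitor of CDK4 and CDK6, was at 10.51 and 10.84 in DMSO and at 7.59 and 8.02 in EPZ4777, 7.31-fold lower (-2.87 ± 0.29). Irf8, which directs monocyte and dendritic cell fate, was at 9.16 and 9.40 in DMSO and at 7.57 and 7.02 in EPZ4777 (-1.99 ± 0.33). Ly86, which encodes MD-1, the partner of the Toll-like receptor homolog CD180, was at 8.69 and 7.98 in DMSO and at 6.42 and 5.95 in EPZ4777 (-2.15 ± 0.39). Il6st, the gp130 chain of the IL-6 receptor, was at 7.58 and 7.96 in DMSO and at 6.41 and 5.98 in EPZ4777 (-1.57 ± 0.27), and was not called with the mean of its 4 probe sets. Arrdc3, an arrestin-domain protein, was at 8.08 and 8.23 in DMSO and 6.08 and 6.01 in EPZ4777 (-2.11 ± 0.20). The junction proteins Cgnl1 and Amot fell by 2.20 and 2.08, the carbonic anhydrase Car12 by 1.73 and the mucin Muc13 by 1.72. Bex6, Fgfbp3, Rras2, the thioredoxin reductase Txnrd3, the receptors Cd244a and Btla, the ER chaperone Dnajc10 and the mitochondrial protein Cisd1 fell by 1.40 to 1.84. Lat2, an adaptor of immune receptors, fell by 1.63 with the probe set used, and 1 of its 3 probe sets had this sign. The 20 largest falls had adjusted p from 0.0244 to 0.0490 in limma, 16 of them were larger in D11, and all 20 also passed in the blocked fit.

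**Figure D2:**
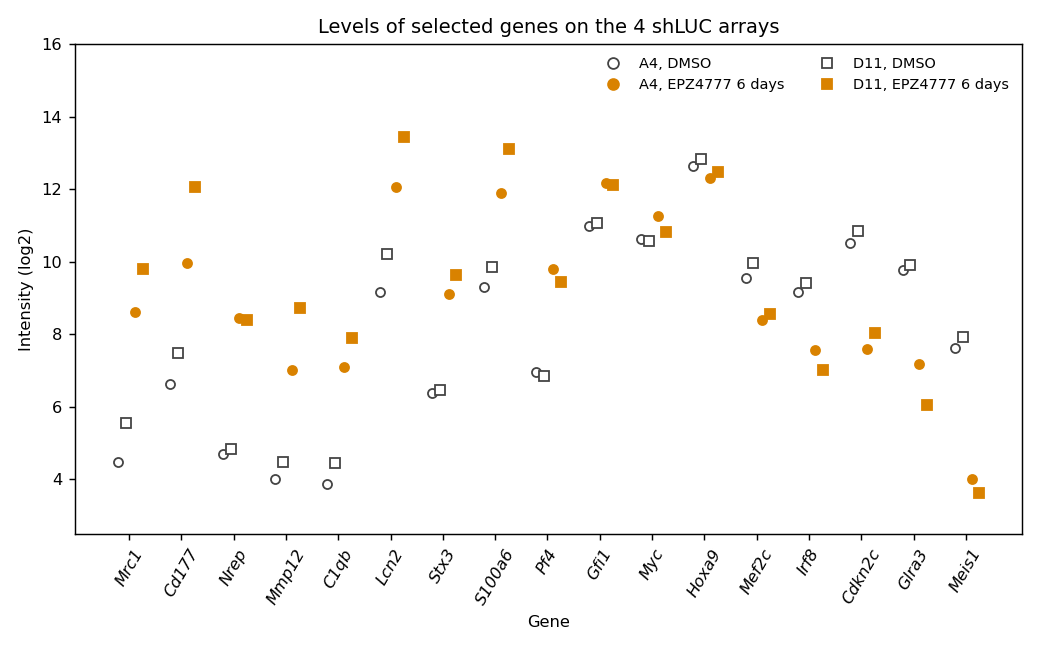
Log2 intensity (y axis) of 17 genes (x axis) on the 4 shLUC arrays, with circles for code A4, squares for D11, open symbols for DMSO and orange symbols for EPZ4777. Mrc1 rose from 4.48 and 5.55 to 8.62 and 9.80 and Meis1 fell from 7.62 and 7.93 to 4.01 and 3.62, while Hoxa9 stayed between 12.30 and 12.83. Intensities of different genes are from different probes and cannot be set against each other.

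Genes of the secondary and tertiary granules of neutrophils lay higher in EPZ4777. Of 24 measured, 5 rose, against 1.62% of all genes, 0 fell and 19 did not pass. In the blocked fit 14 rose, against 3.63%. Both EPZ4777 arrays lay above both DMSO arrays for 21 of the 24, an order that 24.2% of all genes had. The median was 2.03 (1.57 in A4 and 2.67 in D11), and 22 differed upward by at least 1 log2. In bulk RNA, more cells that make a transcript and more transcript per cell cannot be told apart. The promoter sequences of the granule genes are shown because these genes lay higher together and because C/EBP factors are known to act at granule genes. RefSeq (GRCm38.p6) gave a promoter for 18 of the 24. In the 250 bases before the start, 8 of the 18 (44.4%) held TTGCNNAA on either strand, half-site letters of the C/EBP family, against 8.34% of all promoters of genes tested, 11.01% of those of genes that rose and 7.38% of those of genes that fell. It was 1 of 6 patterns searched, and a match is a description of letters. Other patterns too were more frequent than in promoters of genes tested, counted over whole promoters, which include bases after the start. The PU.1 letters GAGGAAG were in 27.78% of the 18, against 13.46%, and the MYC letters CACGTG in 16.67%, against 8.725%. The FOXO letters GTAAACA were in 11.11%, against 2.976%. The ATF4 and interferon patterns were in 0%, against 2.728% and 3.026%. These differences were not tested. The promoters of Cd177, Olfm4 and Camp had no TTGCNNAA in the 250 bases before the start. Below are 3 called genes and 2 that did not pass. The 250 bases are read 5′ to 3′ on the gene's strand up to its start, with TTGCNNAA matches in capitals.
Fcnb, chr2:28084879-28085128, minus strand: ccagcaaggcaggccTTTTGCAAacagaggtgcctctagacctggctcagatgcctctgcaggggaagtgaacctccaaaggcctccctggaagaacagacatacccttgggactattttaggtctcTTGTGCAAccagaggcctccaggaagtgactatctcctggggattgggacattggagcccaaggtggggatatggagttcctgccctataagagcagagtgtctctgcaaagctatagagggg
Lcn2, chr2:32387740-32387989, minus strand: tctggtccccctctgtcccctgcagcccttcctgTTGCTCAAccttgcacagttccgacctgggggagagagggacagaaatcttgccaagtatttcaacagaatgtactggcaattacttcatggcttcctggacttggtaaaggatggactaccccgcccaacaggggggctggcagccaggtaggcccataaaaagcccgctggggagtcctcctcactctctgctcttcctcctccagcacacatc
Slpi, chr2:164356508-164356757, minus strand: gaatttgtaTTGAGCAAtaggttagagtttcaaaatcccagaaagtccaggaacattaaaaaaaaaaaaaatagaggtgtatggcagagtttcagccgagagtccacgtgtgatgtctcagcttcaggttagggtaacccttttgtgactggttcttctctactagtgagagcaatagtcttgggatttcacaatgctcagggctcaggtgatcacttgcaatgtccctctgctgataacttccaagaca
Ltf, chr9:111019042-111019291, plus strand: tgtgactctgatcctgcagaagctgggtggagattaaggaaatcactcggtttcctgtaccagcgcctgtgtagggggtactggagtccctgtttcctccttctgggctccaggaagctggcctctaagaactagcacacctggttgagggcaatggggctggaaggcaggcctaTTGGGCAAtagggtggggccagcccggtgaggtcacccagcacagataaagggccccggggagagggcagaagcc
Ngp, chr9:110419558-110419807, plus strand: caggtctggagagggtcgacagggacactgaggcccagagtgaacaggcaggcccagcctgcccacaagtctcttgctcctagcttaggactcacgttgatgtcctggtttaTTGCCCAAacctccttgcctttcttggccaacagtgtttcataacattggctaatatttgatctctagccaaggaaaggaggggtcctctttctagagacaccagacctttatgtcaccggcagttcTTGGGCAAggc

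Cd177, a surface protein of the neutrophil's secondary granules, was at 6.63 and 7.49 in DMSO and at 9.97 and 12.06 in EPZ4777, 15.5-fold higher (3.95 ± 0.72, limma adjusted p = 0.0393). Lcn2, the iron-siderophore binder lipocalin 2, was at 9.16 and 10.20 in DMSO and at 12.06 and 13.44 in EPZ4777 (3.07 ± 0.62). Olfm4, a granule glycoprotein of a subset of neutrophils, was at 9.42 and 9.39 in DMSO and at 12.21 and 12.37 in EPZ4777 (2.88 ± 0.49). The DMSO and EPZ4777 arrays of these genes did not overlap, as held for every called gene, and the codes were closest for Olfm4. Fcnb, a ficolin of bone marrow myeloid cells, was at 5.89 and 5.63 in DMSO and at 7.56 and 8.58 in EPZ4777 (2.31 ± 0.45). Slpi, an inhibitor of elastase, was at 10.57 and 10.62 in DMSO and at 11.45 and 11.78 in EPZ4777 (1.02 ± 0.20). Other members passed in the blocked fit only. Camp, the cathelicidin, was at 9.67 and 10.37 in DMSO and at 11.76 and 13.47 in EPZ4777 (2.59 ± 1.17). Ngp, the neutrophilic granule protein, was at 11.06 and 11.89 in DMSO and at 12.79 and 14.22 in EPZ4777 (2.03 ± 0.82). Chil3, a chitinase-like protein, was at 10.82 and 11.56 in DMSO and at 13.89 and 14.16 in EPZ4777 (2.83 ± 1.13), and passed in neither fit. Of 9 primary granule genes 0 passed in limma and 0 had an unadjusted p under 0.05, their median was 0.03, and in the blocked fit Lyz2 alone passed, higher. Mpo, myeloperoxidase, was at 13.35 and 12.91 in DMSO and at 13.26 and 12.76 in EPZ4777 (-0.12 ± 0.24). Prtn3, proteinase 3, was at 13.82 and 13.84 in DMSO and at 13.86 and 13.75 in EPZ4777 (-0.03 ± 0.23). The difference between the 2 granule lists was not tested.

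All 7 measured S100 genes had a positive difference and 1 rose (2 in the blocked fit). S100a6, a calcium-binding protein, was at 9.31 and 9.85 in DMSO and at 11.90 and 13.10 in EPZ4777 (2.92 ± 0.40). S100a8, a subunit of calprotectin, was at 13.81 and 13.97 in DMSO and at 14.37 and 14.53 in EPZ4777 (0.56 ± 0.22, not called). Of 15 neutrophil surface receptors 0 passed in limma (8 at an unadjusted p under 0.05, all higher), with a median of 0.69, and 3 passed, higher, in the blocked fit: Il1r2, a decoy receptor of IL-1, C5ar1, the C5a receptor, and Itgam, the CD11b chain. Csf3r, the G-CSF receptor, was at 7.78 and 7.75 in DMSO and at 8.49 and 9.56 in EPZ4777 (1.26 ± 0.33, not called). Among 7 genes of the NADPH oxidase Hvcn1, the proton channel that sustains the burst, rose from 9.02 and 8.67 to 10.01 and 10.68 (1.498 ± 0.23). Stx3, a syntaxin of exocytosis, had the lowest adjusted p of the 20 largest rises. It was at 6.38 and 6.47 in DMSO and at 9.11 and 9.64 in EPZ4777, 7.73-fold higher (2.95 ± 0.18, limma adjusted p = 0.00511).

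Of 34 measured macrophage genes 8 rose, against 1.62% of all genes, 26 did not pass and 0 fell. In the blocked fit 12 rose, against 3.63%, and the median was 0.58. Mrc1, the mannose receptor, was at 4.48 and 5.55 in DMSO and at 8.62 and 9.80 in EPZ4777, the largest rise of the named genes at 18.3-fold (4.19 ± 0.80, limma adjusted p = 0.0418). Mmp12, the macrophage elastase, was at 3.996 and 4.48 in DMSO and at 7.02 and 8.71 in EPZ4777 (3.63 ± 0.49). The 3 chains of complement C1q rose together: C1qa was at 4.67 and 4.43 in DMSO and 5.96 and 6.70 in EPZ4777 (1.78 ± 0.25). C1qb was at 3.87 and 4.45 in DMSO and at 7.09 and 7.89 in EPZ4777 (3.33 ± 0.28). C1qc was at 4.49 and 4.50 in DMSO and at 5.70 and 6.65 in EPZ4777 (1.68 ± 0.33). Pla2g7, a secreted phospholipase that hydrolyses platelet-activating factor, was at 4.20 and 3.92 in DMSO and at 7.27 and 7.23 in EPZ4777 (3.19 ± 0.54). Maf, a transcription factor of resident macrophages, was at 6.58 and 8.04 in DMSO and at 9.57 and 10.98 in EPZ4777 (2.97 ± 0.61), and it was not called with the mean of its 6 probe sets. Msr1, a scavenger receptor, was at 7.58 and 7.74 in DMSO and at 9.43 and 9.61 in EPZ4777 (1.86 ± 0.36). Among those not called, Csf1r, the M-CSF receptor, was at 9.79 and 10.32 in DMSO and at 10.08 and 10.29 in EPZ4777, and its groups overlapped. Adgre1, a macrophage surface antigen, was at 9.06 on both DMSO arrays and at 9.37 and 9.80 in EPZ4777 (0.52 ± 0.36). Ccr2, the receptor of inflammatory monocytes, was at 11.27 and 11.21 in DMSO and at 10.11 and 9.69 in EPZ4777 (-1.34 ± 0.28, limma adjusted p = 0.0505).

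Of 36 lysosome genes 4 rose, against 1.62% of all genes, and 0 fell (9 rose in the blocked fit, against 3.63%). For 29 both EPZ4777 arrays lay above both DMSO arrays, an order that 24.2% of all genes had, and the median was 0.36. Atp6v0d2, a subunit of the proton pump of osteoclasts and macrophages, was at 3.99 and 4.28 in DMSO and at 5.99 and 7.71 in EPZ4777 (2.71 ± 0.50). The asparaginyl protease Lgmn was at 5.07 and 5.46 in DMSO and at 6.93 and 7.55 in EPZ4777 (1.97 ± 0.36), and the cathepsins Ctsk (1.10 ± 0.17) and Ctsb (1.05 ± 0.20) rose too. Of 26 genes of lipid uptake, storage and efflux 4 rose and 0 fell (6 rose in the blocked fit). Mogat2, an acyltransferase of triglyceride synthesis, was at 7.81 and 7.56 in DMSO and at 10.21 and 11.14 in EPZ4777 (2.99 ± 0.32). Ch25h, which makes 25-hydroxycholesterol, was at 4.48 and 4.93 in DMSO and at 7.61 and 6.84 in EPZ4777 (2.52 ± 0.27). Abcg1, a sterol exporter, rose by 1.29 ± 0.16, and the fourth was Pla2g7. Of 24 genes of cholesterol and fatty acid synthesis 0 passed in limma (4 lower at an unadjusted p under 0.05), with a median of -0.21, and 3 fell in the blocked fit. Of 17 matrix proteases and inhibitors 3 rose (Mmp12, Plau and Ctsk) and 0 fell, with 8 rises in the blocked fit. Of 21 eicosanoid genes the prostaglandin receptors Ptger2 (1.88 ± 0.33) and Ptgir (1.82 ± 0.34) rose and 0 fell, with 5 rises in the blocked fit.

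Of 29 chemokines and receptors 3 rose, against 1.62% of all genes, and 0 fell. In the blocked fit 7 rose and 1 fell, against 3.63% and 3.61%. Pf4, a chemokine of platelets that macrophages can also make, was at 6.97 and 6.86 in DMSO and at 9.81 and 9.43 in EPZ4777 (2.71 ± 0.19, limma adjusted p = 0.00979). The monocyte attractants Ccl7 and Ccl12 rose: Ccl7 was at 4.75 and 5.33 in DMSO and at 6.78 and 8.11 in EPZ4777 (2.40 ± 0.41). Ccl12 was at 4.66 and 5.21 in DMSO and at 6.33 and 7.41 in EPZ4777 (1.93 ± 0.35). Of 28 cytokine and growth factor receptors Il7r (1.69 ± 0.23), the TNF receptors Tnfrsf1b (0.99 ± 0.12) and Tnfrsf1a (0.81 ± 0.15), the insulin receptor Insr (0.94 ± 0.14) and Il1r1 (0.77 ± 0.12) rose, and Il6st fell, with 6 rises and 1 fall in the blocked fit. Of 35 genes of the BMP, activin and TGF-beta pathways 3 rose and 1 fell, against 1.62% and 2.36% of all genes. In the blocked fit 5 rose and 1 fell, against 3.63% and 3.61%. Inhba, the activin A subunit, was at 6.58 and 6.44 in DMSO and at 8.02 and 9.45 in EPZ4777 (2.23 ± 0.41). Fstl1, a secreted follistatin-like protein, was at 3.56 and 3.58 in DMSO and at 7.11 and 6.06 in EPZ4777 (3.02 ± 0.45). Nrep, a small neuronal protein, was at 4.71 and 4.83 in DMSO and at 8.45 and 8.40 in EPZ4777 (3.65 ± 0.67), and Bambi, a decoy receptor, fell by 0.86 on the log2 scale. Of 16 C-type lectins Mrc1, Ly75 (1.88 ± 0.27) and Clec2d (1.17 ± 0.22) rose and 0 fell (4 and 1 in the blocked fit). Of 12 genes of MHC class II presentation H2-DMa fell (-0.90 ± 0.19) and 0 rose (2 and 1 in the blocked fit). Of 18 integrins and selectins Itgal rose (0.97 ± 0.19) and Itgb1 fell (-0.61 ± 0.12), with 2 rises and 3 falls in the blocked fit. Neither H2-DMa nor Itgb1 passed after quantile normalization. Of 20 Toll-like receptors and partners Ly86 fell and 0 rose (2 rose in the blocked fit). Of 8 Fc receptor genes 0 passed in limma (2 higher at an unadjusted p under 0.05) and 0 in the blocked fit.

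Of the 20 largest rises, several belonged to no immune list. Jag1, a Notch ligand, was at 3.55 and 3.91 in DMSO and at 6.31 and 6.56 in EPZ4777 (2.70 ± 0.36). Slc32a1, the vesicular transporter of GABA and glycine, was at 5.19 and 4.44 in DMSO and at 8.05 and 7.41 in EPZ4777 (2.92 ± 0.58), with the same sign on 3 of its 4 probe sets. Pknox2, a TALE homeobox gene like Meis1 that moved the other way, was at 5.37 and 5.90 in DMSO and at 8.03 and 8.43 in EPZ4777 (2.59 ± 0.40). Plxnc1, a semaphorin receptor, was at 7.03 and 6.76 in DMSO and at 9.02 and 9.83 in EPZ4777 (2.53 ± 0.25). Cd200r4, of the CD200 receptor family, was at 6.38 and 7.18 in DMSO and at 9.19 and 10.06 in EPZ4777 (2.85 ± 0.39). These 5 had groups that did not overlap, as held for every called gene. The 20 largest rises had adjusted p from 0.00511 to 0.0477 in limma, and all 20 also passed in the blocked fit.

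Among 39 transcription factors of myeloid cells 6 rose and 2 fell, against 1.62% and 2.36% of all genes. In the blocked fit 8 rose and 2 fell, against 3.63% and 3.61%. Gfi1, a repressor needed for neutrophils, was at 10.97 and 11.07 in DMSO and at 12.18 and 12.12 in EPZ4777 (1.13 ± 0.12). Runx1, a core factor of blood formation, was at 8.71 and 8.59 in DMSO and at 9.75 and 9.84 in EPZ4777 (1.15 ± 0.11). Cebpd, a C/EBP factor of mature granulocytes, was at 10.13 and 10.53 in DMSO and at 11.30 and 11.77 in EPZ4777 (1.21 ± 0.22). The others that rose were Maf, Nab2 (0.94 ± 0.14), a corepressor of EGR factors, and Id1 (0.64 ± 0.11), and those that fell were Irf8 and Tcf4 (-0.94 ± 0.19), a factor of plasmacytoid dendritic cells. Cebpa, needed for the step to granulocyte and monocyte progenitors, was at 8.49 and 8.53 in DMSO and at 9.52 and 9.26 in EPZ4777 (0.88 ± 0.23), and passed in the blocked fit only. Spi1, which encodes PU.1, was at 9.16 and 9.39 in DMSO and at 9.34 and 9.87 in EPZ4777 and overlapped between groups. Klf4, a monocyte factor, was at 9.28 and 9.55 in DMSO and at 9.05 and 8.83 in EPZ4777 (-0.47 ± 0.33, not called).

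Of 41 genes of MYC and ribosome biogenesis 19 fell, against 2.36% of all genes, 0 rose and 22 did not pass. The numbers were the same in the blocked fit, against 3.61% lower. All 41 lay above log2 6 in mean in DMSO. Over all genes the falls by quartile of DMSO level, from lowest to highest, numbered 0, 13, 176 and 240. The share of falls among genes above log2 6 was not computed. Both EPZ4777 arrays lay below both DMSO arrays for 39 of the 41, against 28.2% of all genes. The median was -0.68 (-0.54 in A4 and -0.82 in D11), and after quantile normalization 8 fell. Utp20, of the small subunit processome, was at 9.65 and 9.73 in DMSO and at 8.80 and 8.51 in EPZ4777 (-1.03 ± 0.16). Grwd1, a chaperone of a ribosomal protein, was at 9.54 and 9.70 in DMSO and at 8.72 and 8.50 in EPZ4777 (-1.01 ± 0.19). Wdr12, of the complex that matures the large subunit, was at 10.91 and 10.82 in DMSO and at 10.16 and 9.63 in EPZ4777 (-0.97 ± 0.19). Wdr74 fell by 0.96 and Nat10, which acetylates cytidines of ribosomal RNA, by 0.93. The other falls ran to Nhp2, a box H/ACA ribonucleoprotein, at -0.55 ± 0.11. Myc itself, the exception in sign, was at 10.62 and 10.57 in DMSO and at 11.24 and 10.81 in EPZ4777 (0.43 ± 0.17, limma adjusted p = 0.186). Of 12 genes of the MYC and MAX network, a family chosen after its values were seen, Mxd1 rose and 0 fell, in both fits. All genes gave 1.62% rises in limma and 3.63% in the blocked fit. A count of 1 in a family so chosen is not a result about the family. Mxd1, a MAX partner that represses genes of MYC, was at 7.79 and 7.80 in DMSO and at 9.15 and 10.36 in EPZ4777 (1.96 ± 0.40), not called with the mean of its 3 probe sets.

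Of 24 genes of nucleotide and folate synthesis 6 fell, against 2.36% of all genes, and 0 rose, with a median of -0.60. In the blocked fit 11 fell, against 3.61%, and after quantile normalization 3 did. All 24 lay above log2 6 in mean in DMSO, and the share of falls at that level was not computed. For 22 of the 24 both EPZ4777 arrays lay below both DMSO arrays, against 28.2% of all genes. The pyrimidine enzymes Dhodh (-0.94 ± 0.18), Umps (-0.91 ± 0.13) and Ctps (-0.86 ± 0.14) and the purine enzymes Prps1 (-0.89 ± 0.17), Atic (-0.85 ± 0.15) and Adsl (-0.69 ± 0.13) were those called. Atic, which performs the last steps to inosine monophosphate, was at 11.02 and 11.03 in DMSO and at 10.38 and 9.98 in EPZ4777. Of 8 measured genes of polyamine metabolism 1 rose and 2 fell, against 1.62% and 2.36% of all genes, and 5 did not pass. The numbers were the same in the blocked fit, against 3.63% and 3.61%. The list's median was -0.01, with 3 positive and 5 negative differences. Odc1, the first enzyme of polyamine synthesis, was at 12.68 and 12.61 in DMSO and at 11.75 and 11.37 in EPZ4777 (-1.09 ± 0.16). Srm, spermidine synthase, fell by 0.89 and was not called after quantile normalization. Sat1, which acetylates polyamines for export, rose from 11.68 and 11.62 to 12.26 and 12.22 (0.58 ± 0.11). Of 9 protein arginine methyltransferases, a family chosen after its values were seen, 5 fell, against 2.36% of all genes, and 0 rose. In the blocked fit 6 fell, against 3.61%. Because the family was picked from these values, its count is not a test. The 5 lay at 8.58 to 11.81 in mean in DMSO, and the share of falls at that level was not computed. They were Prmt5 (-0.98 ± 0.14), Prmt7 (-0.97 ± 0.16), Prmt1 (-0.81 ± 0.13), Prmt6 (-0.78 ± 0.15) and Prmt3 (-0.67 ± 0.13). After quantile normalization Prmt6 and Prmt3 were not called, nor was Prmt3 with the mean of its probe sets. In the 250 bases before the start, 6 of the 68 promoters (8.82%) of the ribosome biogenesis and nucleotide genes together held the letters CACGTG, the E-box of MYC and MAX, against 7.38% of promoters of genes tested. The share was 10.1% of the 447 promoters of genes that fell and 4.59% of the 327 of genes that rose. Over all 300 bases, which take in the 50 after the start, it was 14.3% and 5.51%, against 8.73% of promoters of genes tested. Over these 300 bases 6 of 43 promoters of ribosome biogenesis genes held the E-box (13.95%), and 4 of 19 of those that fell (21.05%). For nucleotide and folate genes it was 5 of 25 (20%). The matches in the 250 bases lay before Atic, which fell, and before Nme1, Nop2, Paics and Tyms, which were not called. Atic is thus the only called gene of these lists with the E-box in the 250 bases. Grwd1, Pes1, Utp20 and Wdr43, which fell, held it only when the 50 bases after the start were included. Atic is shown with the 250 bases read 5′ to 3′ and the match in capitals.
Atic, chr1:71556906-71557155, plus strand: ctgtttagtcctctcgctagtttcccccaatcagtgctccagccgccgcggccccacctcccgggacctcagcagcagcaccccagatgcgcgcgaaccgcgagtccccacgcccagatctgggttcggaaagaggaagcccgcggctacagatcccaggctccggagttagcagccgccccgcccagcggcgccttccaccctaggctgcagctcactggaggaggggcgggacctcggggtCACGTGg

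Of 37 DNA replication genes 3 fell, against 2.36% of all genes, and 0 rose. The numbers were the same with the block, against 3.61% lower. All 37 lay above log2 6 in mean in DMSO. Whether 3 of 37 exceeds the share of falls among genes of that level was not tested. The median was -0.25, and 32 had both EPZ4777 arrays below both DMSO arrays, against 28.2% of all genes. Pold2, a subunit of polymerase delta, was at 10.05 and 9.95 in DMSO and at 9.13 and 8.86 in EPZ4777 (-1.01 ± 0.15). The licensing factor Cdc6 (-0.60 ± 0.10) and Mcm10 (-0.51 ± 0.10, not called in the blocked fit) were the others. The replication clamp gene Pcna lay between 13.28 and 13.41 on all 4 arrays. Of 25 mitosis genes Nek2, a centrosomal kinase, fell (-0.79 ± 0.10) and 0 rose (1 rose with the block), and the median was 0.07. A count of 1 in 25 is near the 2.36% of all genes that fell. Mki67, the proliferation antigen Ki-67, was at 11.96 and 12.06 in DMSO and at 12.24 and 12.51 in EPZ4777 (0.36 ± 0.14, not called). Of 22 CDK inhibitors and G1 regulators Cdkn2c and Cdk6 fell and 0 rose, with 3 falls in the blocked fit, where Cdk6 was not called. Cdkn1b, which encodes p27KIP1, was at 7.95 and 8.18 in DMSO and at 8.55 and 9.10 in EPZ4777 (0.76 ± 0.23, not called). Cdkn1a, which encodes p21CIP1, was at 10.24 and 10.30 in DMSO and at 9.51 and 9.36 in EPZ4777 (-0.84 ± 0.26), lower in the blocked fit only.

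Of 34 genes of ATF4 and amino acid metabolism 2 fell and 0 rose (4 and 1 with the block), and the median was -0.33. Slc7a11, the cystine transporter, was at 8.14 and 7.9996 in DMSO and at 6.86 and 6.57 in EPZ4777 (-1.36 ± 0.19). Trib3, a pseudokinase of that response, was at 8.75 and 8.69 in DMSO and at 7.79 and 7.44 in EPZ4777 (-1.10 ± 0.19). Asns, asparagine synthetase, was at 12.12 and 12.06 in DMSO and at 12.17 and 11.85 in EPZ4777, and its groups overlapped. Of 33 interferon response genes Rtp4 (1.13 ± 0.18), Ddx58 (1.03 ± 0.20), which encodes RIG-I, and Oas2 (0.91 ± 0.18) rose and 0 fell. All genes gave 1.62% rises. In the blocked fit 3 rose and 3 fell, against 3.63% and 3.61% of all genes. Of 23 FOXO factors and targets 4 rose, against 1.62% of all genes, and 0 fell. With the block 7 rose, against 3.63%, and 0 fell, and the median was 0.63. Those that rose in limma were Il7r, Insr, Cited2 (0.65 ± 0.12) and Foxo1 itself, which went from 6.12 and 6.01 to 6.67 and 6.72 (0.63 ± 0.13). Of 16 p53 targets Btg2, an antiproliferative gene, rose (0.72 ± 0.14) and 0 fell, with 1 rise and 3 falls in the blocked fit. The median of that list was -0.37, 13 of the 16 had a negative difference, and at an unadjusted p under 0.05 2 were higher and 6 lower. Of 20 BCL2 family and caspase genes 0 passed in limma (4 higher and 2 lower at an unadjusted p under 0.05), and Bcl2l11, which encodes BIM, and Apaf1 passed, higher, in the blocked fit only.

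**Figure D3:**
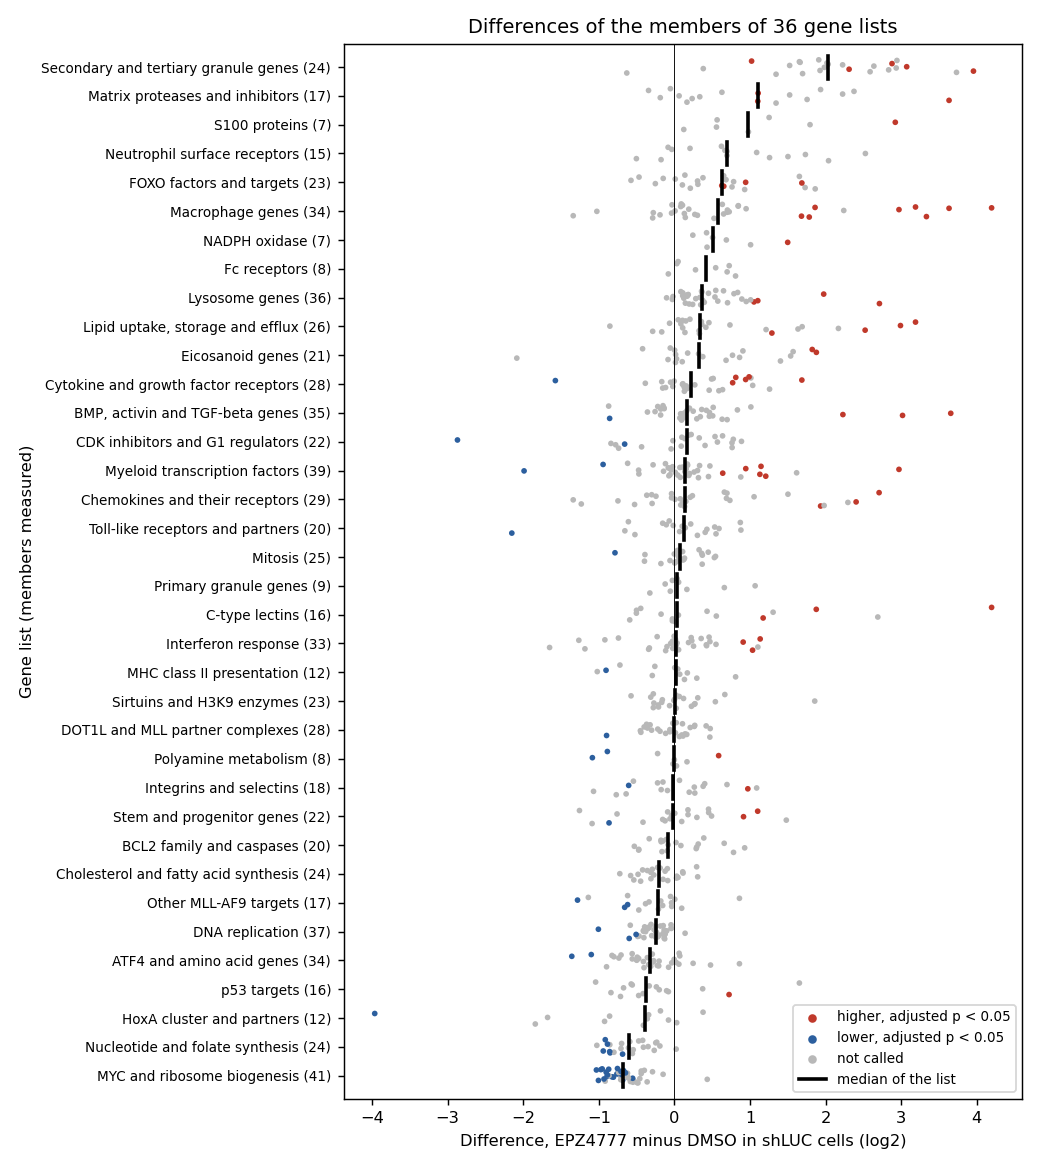
Difference EPZ4777 minus DMSO on the log2 scale (x axis) for each measured member of 36 gene lists (y axis), sorted by the list's median (black bar), with members that rose in red and those that fell in blue. Secondary and tertiary granule genes have the highest median (2.03), and MYC and ribosome biogenesis genes the lowest (-0.68), with 40 of 41 members below 0.

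The cells labelled shSirt1, after 21 days in EPZ4777, show where the 6-day pattern was shared in sign, although hairpin and time cannot be told apart between the arms. Of the 724 genes called in shLUC cells 668 had the same sign there, 257 of the 295 that rose and 411 of the 429 that fell. The share of all genes with the same sign in both arms was not computed, so these counts have no background. They also include genes near 0 in that arm, such as Btla (-0.02 there against -1.41 in shLUC cells). In that arm 72 genes passed (0.396%). The granule list had a median of 2.81 there against 2.03 in shLUC cells, and ribosome biogenesis -0.32 against -0.68. The macrophage list had a median of 0.00 there against 0.58. C1qb differed by -0.13 there against 3.33 in shLUC cells, Pla2g7 by -0.01 against 3.19, Mmp12 by 0.16 against 3.63 and Mrc1 by 1.28 against 4.19. Tested as the difference between the arms, 0 genes passed in limma (1221 at an unadjusted p under 0.05), and 3 passed in the blocked fit (0.0165%): C1qb, Mmp13 and Smad1. Within shLUC cells Mmp13 passed, higher, in the blocked fit only. Without A5 in DMSO 89 passed, and without A1 in EPZ4777 2.

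**Figure D4:**
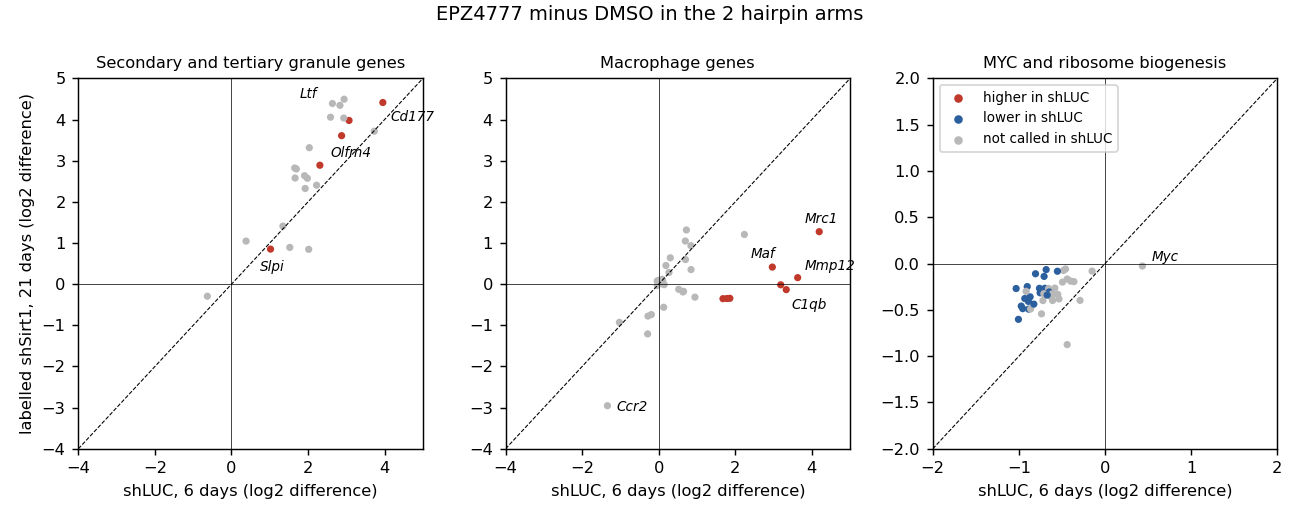
Difference EPZ4777 minus DMSO on the log2 scale in cells labelled shSirt1 after 21 days (y axis) against shLUC cells after 6 days (x axis) for the measured members of 3 lists, coloured by the call in shLUC cells, with equal difference as a dashed line. Granule genes lie near or above the line (median 2.81 in cells labelled shSirt1 and 2.03 in shLUC), most called macrophage genes lie near 0 on the y axis, and ribosome biogenesis genes lie below 0 on both axes with Myc to the right, in a panel with a narrower range on both axes.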

How the data were processed

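Total RNA of mouse MLL-AF9 cells (Trizol extraction, per the labels) was measured on 8 Affymetrix arrays. The authors deposited intensity values from RMA, according to the submitters' processing notes. The values are linear and reach 24500. RMA pulls low signals toward a floor, so low genes understate a change. Software version and chip definition: not given in the sources used. Array medians were 5.21 to 5.27 (log2), and 2 arrays a group limit the precision.

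Values were taken to log2 without pseudocount or renormalization. The 64 controls of 45101 probe sets were left out. Of the rest 34945 had 1 gene symbol, 932 several and 9160 none in the annotation. The brightest probe set over the 8 arrays stood for each gene (18193 genes, 9010 with several). limma 3.58.1 (R 4.3.3, data.table version 1.17.8) was fitted to 4 group means over 8 arrays, with 4 residual degrees of freedom. Calls were two-sided at Benjamini-Hochberg adjusted p under 0.05 without a fold minimum. The smallest p an exact test of 2 against 2 can give is 0.333. The fit was tested on simulated data. The blocked fit added the code (2 residual degrees of freedom). Between DMSO and EPZ4777 the shLUC codes' deviations from their group means correlated at 0.293 over genes. The pairing comes from the titles.

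Members and the 45 gene lists (906 genes, 831 measured) were chosen with earlier results of these data known. Named are the 20 largest rises and falls with the same sign in both codes (symbols ending in Rik, Gm with a number, LOC or an accession counted only, 24 of the calls), up to 6 called members a list, 6 genes a side with the widest gap between codes, genes that went between the outer quartiles (0 found), up to 5 called arm differences a side (0 found) and set genes, of which Cebpe was not analysed here. Other list members named were chosen after their values were seen. Promoters are from RefSeq, GRCm38.p6. Alternatives were other rules for probe sets, filters, normalizations, variance models, thresholds, blocks, subsets of arrays and each array left out.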

Additional observations from a re-analysis of the deposited data

Results flagged for a closer look

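The EPZ4777 effect differed between the hairpin arms for 3 genes by an interaction term of the fit with the code as a block, and for 0 genes by limma without the block (1221 at an unadjusted p under 0.05). C1qb, a chain of complement C1q, changed by 3.22 and 3.44 in shLUC codes A4 and D11 and by -0.23 and -0.03 in A1 and A5 of cells labelled shSirt1. The difference of the effects was 3.47 ± 0.40 (log2 ± standard error of the limma fit without the block, n = 2 arrays a group). Mmp13, a collagenase, changed by 1.93 and 1.58 in A4 and D11 and by -1.98 and -1.77 in A1 and A5, so every code of one arm moved opposite to the other, with a difference of 3.63 ± 0.78. Smad1, a transducer of BMP signals, changed by -0.46 and -0.26 in A4 and D11 and by 3.18 and 3.29 in A1 and A5, with a difference of -3.59 ± 0.52. Smad1 lay at 3.01 to 3.47 on the shLUC arrays and C1qb at 3.60 to 3.87 on the arrays labelled shSirt1. Mmp13 ended at 3.12 and 3.01 in EPZ4777 in A1 and A5. These levels are under the lower quartile of gene means (4.27), so small changes there are not read as movements. The hairpin and the time in drug cannot be told apart between the arms.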

How the results depend on the processing

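In limma 295 genes rose and 429 fell. With genes under the median level left out 493 rose and 931 fell, after quantile normalization 264 fell, with the code as a fixed replicate block 660 and 656, as a random block 999 and 1380 (consensus correlation 0.315), and with only the 4 shLUC arrays 193 and 209, or 1118 and 1073 with the block. At adjusted p under 0.01 the counts were 4 and 0, under 0.10 they were 796 and 1162, with at least 1 log2 152 and 82, and over single probe sets 506 and 1020. Leaving out 1 array gave 0 to 503 rises and 0 to 528 falls. The arm difference gave 3 genes with either block and 0 to 89 with 1 array left out. Fewer genes were tested once those under the median level were left out. The cause of the other shifts was not tested. The alternatives were followed for 163 of the genes named, 115 of them called, and 0 called genes reversed in any. Quantile normalization ended the call for 19 and averaging the probe sets of a gene for 24. Both ended it for Dhodh, H2-DMa, Itgb1, Lat2, Mcm10, Nat10, Plau, Prmt3, Tcf4 and Wdr12. The former alone ended it for Adsl, Cd244a, Cdk6, Dnajc10, Nhp2, Prmt6, Prps1, Srm and Wdr74, and the latter alone for Acta2, Ash2l, Car12, Cisd1, Cited2, Ctsb, Foxo1, Il1r1, Il6st, Insr, Maf, Mxd1, Slc32a1 and Umps. With 1 array left out 11 uncalled genes changed sign: Asns (-0.24 to 0.085), Cd3e (-0.059 to 0.043), Csf1r (-0.13 to 0.40), Dot1l (-0.20 to 0.074), Gata1 (-0.051 to 0.14), Gp9 (-0.16 to 0.036), Itga2b (-0.063 to 0.33), Mpo (-0.37 to 0.13), Prtn3 (-0.079 to 0.024), Scd1 (-1.502 to 0.66) and Sirt1 (-0.072 to 0.31). The fixed block added a call for 19 of these 163 genes and ended it for 2, Cdk6 and Mcm10. No detection calls were used, so levels near the RMA floor bound no change.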
